A study of Homo sapiens with 15 samples.

Results

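Knockdown of PCBP2 was set directly against knockdown of U2AF2 in HEK293T, a human embryonic kidney cell line, by how often each gene's transcripts ended at their distal poly(A) site. The genes compared were all those with a value in both shPCBP2 libraries and both shU2AF2 libraries, 12188 of the 13056 in the deposited table. The shPCBP2 and shU2AF2 groups carried short hairpin RNAs against PCBP2 and U2AF2. Other hairpins gave 2 libraries each of shSF3B4, shPABPN1, shZNF384 and shHDAC1, and a control hairpin gave 3 libraries of shControl. Per the labels, polyadenylated RNA was selected with oligo(dT) before library construction with the NEBNext Ultra kit. Kits for nuclear RNA and for total RNA are both named there, and which RNA each library holds is not stated. No treatment time, hairpin sequence or clone is given. In shControl alone the libraries have names ending in nuc, a term that is not explained, so a difference in preparation cannot be told apart from a difference between hairpins in any comparison with shControl. The direct comparison of the 2 knockdowns does not use that group's mean.

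Most human genes can end their messenger RNA at more than 1 poly(A) site, and the choice of a proximal site shortens the 3' untranslated region and removes binding sites for microRNAs and RNA-binding proteins. PCBP2 is a KH-domain protein that binds C-rich RNA and acts in messenger RNA stability, translation and splicing. U2AF2 is the large subunit of U2AF, which binds the pyrimidine tract ahead of the 3' splice site and helps recruit the U2 particle to the branch point. U2AF2 is also known to contact the cleavage and polyadenylation machinery, which couples removal of the last intron to 3' end formation. The measure here was PDUI, an index of distal site usage given as a fraction: at 1 every transcript is estimated to end distally, and near 0 almost every one ends proximally. PDUI is a share within a gene and not an amount of RNA. In bulk RNA, a moderate shift in every cell and a full shift in some of the cells give the same PDUI and cannot be told apart.

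The annotated 3' ends of 6 genes among the largest differences are shown for their poly(A) signal. They were picked from those with a canonical hexamer near the end and a matching transcript version, so DDHD1 and U47924.2, which have no such hexamer in their last 50 annotated bases and the largest differences of the named genes, are not among them. Each stretch below lies at or within a few bases of the end of the annotated last exon, in the GENCODE release 29 transcript on GRCh38 with the same version as in the deposited table. All but that of AP2A1, whose transcript has no annotated untranslated region in its last exon, lie in the 3' untranslated region. The canonical poly(A) signal hexamer is in capitals. AP2A1 (chr19:49807084-49807113, plus strand), TMEM25 (chr11:118547251-118547280, plus strand) and TMEM237 (chr2:201620187-201620216, minus strand) had lower PDUI in shPCBP2 than in shU2AF2.
AP2A1: ttgtgagcgAATAAAcagagagacgctaac
TMEM25: acaaaataagtaAATAAAgtctatggtatg
TMEM237: ttatgtacAATAAAgaagttctggaattct
AGAP1 (chr2:236131762-236131791, plus strand), CNOT6L (chr4:77713390-77713419, minus strand) and MPP6 (chr7:24694163-24694192, plus strand) had higher PDUI in shPCBP2 than in shU2AF2.
AGAP1: ctctttctAATAAAgaaatgaaaatatgtc
CNOT6L: ctgtaggcAATAAAtggccattttgcaact
MPP6: gttgtataAATAAAattttcctgtggtaca
The hexamer, AATAAA on the transcript strand, lay within the last 50 bases of 60.9% of the 11881 tested genes with an annotated last exon. A match is a description of the sequence and does not show that the site is used.

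Averaged over genes, the knockdowns had close PDUI. The library means over the 12188 genes were 0.570 and 0.579 in shPCBP2, against 0.577 and 0.567 in shU2AF2. The libraries of the 2 groups interleave, and the group means of 0.575 ± 0.0063 and 0.572 ± 0.0067 (SD, n = 2 each) differed by 0.00287, with an exact two-sided permutation p of 0.667 over the 6 possible splits, where the smallest p the design allows is 1 in 3. The sign of this difference turned without shPCBP2 replicate 2, at -0.00162, and without shU2AF2 replicate 2, at -0.00185. Gene by gene, the median absolute difference between the group means was 0.04, as was the median difference between the replicates of shPCBP2 and between those of shU2AF2. A difference of 0.3 or more separated the group means in 238 genes, and it separated the replicates in 395 genes of shPCBP2 and 364 genes of shU2AF2. Means of 2 libraries vary less than single libraries, so these values are not like for like. Between single libraries of different knockdowns the median absolute difference was 0.05 to 0.06, and 488 to 582 genes differed by 0.3 or more. Pearson's r across genes was 0.932 between the shPCBP2 replicates, 0.934 between the shU2AF2 replicates, and 0.905 to 0.920 between libraries of different knockdowns. Every library had missing values, for 1.37% to 4.49% of genes over the 15 libraries.

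At single genes, 546 of the 12188 differed between the knockdowns at an adjusted p under 0.05 (limma, Benjamini-Hochberg), which is 4.48% of those tested. Of these, 179 had more distal use in shPCBP2 than in shU2AF2 (1.47%) and 367 had less (3.01%). The difference was at least 0.1 in 364 of the called genes (2.99%), at least 0.4 in 32, and under 0.1 in 182. Among the 32 largest, 6 were higher and 26 lower in shPCBP2. The median difference over all tested genes was 0. The 2 libraries of one knockdown lay wholly above or below those of the other in 4555 genes (37.4%), 2412 higher (19.8%) and 2143 lower (17.6%) in shPCBP2. With 2 libraries against 2, 1 in 3 orders without ties separates the groups when nothing differs between them, so this share alone shows little. The called count rests on the estimate of spread that the other 11 libraries supply. With the 4 compared libraries alone, no gene passed and 1706 had an unadjusted p under 0.05 (limma). Of the 546, 532 were among those, and their direction could not differ, because both fits use the same group means. Centring each library on its median left 214 calls, 67 higher and 147 lower, of which 208 were among the 546. The differences of the 77 called genes named below were the same after centring (AP2A1 -0.64, HDAC2 -0.04). Where centring ended their calls, the estimate of spread had changed and not the difference between the knockdowns. With the replicate number as a block in 13 libraries, without shSF3B4, 346 genes were called, 316 of them among the 546. Of the 77 named genes, 53 stayed called in that fit, against 42 after centring. AC078860.2, CASTOR3, CXADR, HES5, ADARB1, PRPF40B and CNOT6 were called after centring but not with the block, at adjusted p of 0.0537 to 0.147 (limma). The count also fell when 1 of the 4 compared libraries was left out. No called gene changed direction under any of the alternatives, but most of them could not have changed it. They keep the same difference between the group means, and genes whose libraries do not overlap cannot turn in a leave-out. Of the 77 called genes named below, 39 stayed called without any 1 of the 4 libraries, and the others were lost most often without shPCBP2 replicate 2 (37 genes) and in 27 to 29 cases without each of the others.

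**Figure D1:**
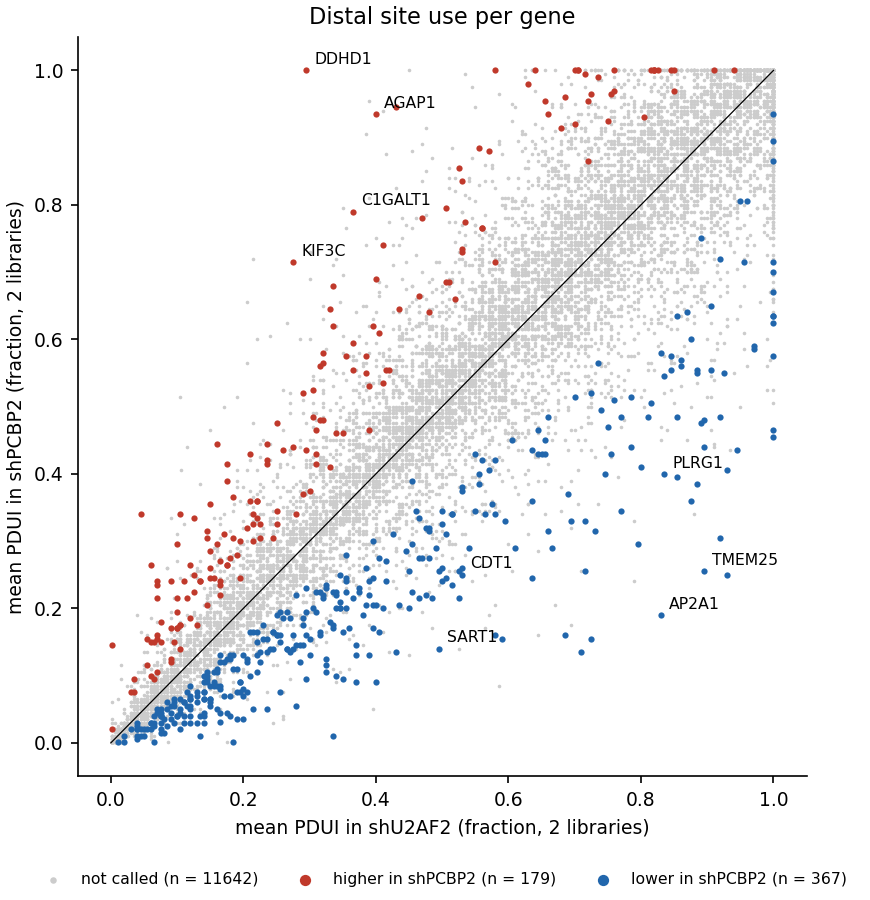
Mean PDUI per gene in shPCBP2 (vertical axis, fraction, 2 libraries) against shU2AF2 (horizontal axis, fraction, 2 libraries) for the 12188 tested genes, with the line of equality. The 179 genes called higher in shPCBP2 are red, the 367 called lower are blue and the rest are grey, and DDHD1 lies farthest above the line.

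In both directions, the called genes had a lower median PDUI than all tested genes. In the 367 lower genes, median PDUI was 0.165 in shPCBP2 and 0.325 in shU2AF2, and 201 of them had a mean under 0.2 in shPCBP2, against 118 in shU2AF2. The 179 higher genes had a median of 0.43 in shPCBP2 and 0.275 in shU2AF2. Distal use was complete in both shPCBP2 libraries in 16 of the higher genes, and in both shU2AF2 libraries in 12 of the lower genes. The medians over all tested genes were 0.6 in shPCBP2 and 0.59 in shU2AF2.

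Among the largest falls of distal use in shPCBP2 relative to shU2AF2 was that of AP2A1, a large subunit of the AP-2 adaptor of clathrin-coated vesicles. AP2A1 had a PDUI of 0.19 and 0.19 in shPCBP2, against 0.85 and 0.81 in shU2AF2. The proximal site predominated in shPCBP2 and the distal site in shU2AF2, and the mean in shControl was 0.127 ± 0.049 (SD, n = 3), on the side of shPCBP2. The difference was -0.64 (SE 0.034, 95% interval -0.718 to -0.562, adjusted p = 2.17e-05, limma). The annotated last exon of AP2A1 is 2238 bases long and overlaps FUZ on the opposite strand. U47924.2 had the largest negative difference of all named genes, with 0.26 and 0.24 in shPCBP2, against 0.99 and 0.87 in shU2AF2 (-0.68, adjusted p = 4.66e-05, limma). Its last exon overlaps C12orf57 and RNU7-1. The library kit is not stated to mark strand, so reads of overlapping genes cannot be assigned to one of them here, on either strand.

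Among the other large falls, DBNL, which encodes drebrin-like protein, an actin-binding adaptor, had 0.14 and 0.18 in shPCBP2, against 0.68 and 0.69 in shU2AF2, with an adjusted p of 1.57e-05 (limma). TBL3, a component of the small-subunit processome that makes ribosomal RNA, had 0.13 and 0.18 in shPCBP2, against 0.80 and 0.65 in shU2AF2. TMEM237, a membrane protein at the base of cilia, had 0.52 and 0.41 in shPCBP2, against 1 in both shU2AF2 libraries. The last exons of DBNL, TBL3 and TMEM237 also overlap other annotated genes, among them PGAM2, NOXO1 and ENO1P4. KIN, a zinc finger protein that binds curved DNA, had 0.37 and 0.35 in shPCBP2, against 0.83 and 0.92 in shU2AF2. YIPF4, a membrane protein of the Golgi, had 0.29 and 0.30 in shPCBP2, against 0.70 and 0.89 in shU2AF2. No other annotated exon overlaps the last exons of KIN (5181 bases, chr10:7750962-7756142) and YIPF4 (11106 bases). CFD, the complement protease factor D, had 0.39 and 0.38 in shPCBP2, against 0.77 and 1 in shU2AF2, so the shU2AF2 libraries also differed from each other.

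The rest of the 14 were TMEM25, ZNRF3, AC078860.2, CENPBD1, LMX1B and PDE5A, with differences of -0.64 to -0.51. The last exons of AC078860.2, CENPBD1 and PDE5A overlap LGR5, AFG3L1P and AC093752.1, in that order. ZNRF3, a ubiquitin ligase that removes Wnt receptors from the membrane, had 0.31 and 0.30 in shPCBP2, against 0.84 and 1 in shU2AF2. LMX1B, a LIM-homeodomain factor, had 0.44 and 0.37 in shPCBP2, against 0.89 and 0.97 in shU2AF2, and its call was the weakest, at an adjusted p of 0.0489 (limma). PDE5A, the phosphodiesterase that degrades cyclic GMP, had 0.45 and 0.42 in shPCBP2, against 0.89 and 1 in shU2AF2. In CENPBD1 both shU2AF2 libraries stood at 1, against 0.54 and 0.37 in shPCBP2, and the shControl mean of 0.817 was nearer to shU2AF2. Of the 14 falls, 9 stayed called when any 1 of the 4 libraries was left out. The other 5 did not. TMEM25 lost its call without shPCBP2 replicate 2, at an adjusted p of 0.0533, and ZNRF3, AC078860.2, CENPBD1 and LMX1B lost theirs in at least 3 of the 4 leave-outs, at adjusted p up to 0.223 (limma). Centring ended the call of LMX1B (adjusted p = 0.0666, limma).

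In the other direction, DDHD1, a phospholipase that acts on phosphatidic acid, changed most. DDHD1 was at 1 in both shPCBP2 libraries, against 0.30 and 0.29 in shU2AF2. Distal use was complete in one knockdown and the minor form in the other, and shControl lay between them at 0.66 ± 0.04 (SD, n = 3). The difference was 0.705 (SE 0.042, 95% interval 0.611 to 0.799, adjusted p = 3.38e-05, limma). DDHD1 was called against shControl in both knockdowns, with opposite signs: 0.34 in shPCBP2 (adjusted p = 0.00622) and -0.365 in shU2AF2 (adjusted p = 0.00043, limma). Its last exon spans chr14:53036745-53046949 and overlaps AL352979.2.

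AGAP1, a GTPase-activating protein for Arf proteins in endosomal traffic, had 1 and 0.87 in shPCBP2, against 0.36 and 0.44 in shU2AF2, a difference of 0.535 (adjusted p = 0.000859, limma). KIF3C, a kinesin motor subunit, had 0.71 and 0.72 in shPCBP2, against 0.21 and 0.34 in shU2AF2, with shControl at 0.677 beside shPCBP2. MPP6, a membrane-associated guanylate kinase scaffold, had 0.65 and 0.64 in shPCBP2, against 0.31 and 0.35 in shU2AF2. These 3 and DDHD1 were the 4 of the 14 largest rises that stayed called without any single library. C1GALT1, the galactosyltransferase that builds the core 1 O-glycan, had 0.77 and 0.81 in shPCBP2, against 0.35 and 0.38 in shU2AF2. VGF, a neuroendocrine secretory protein, was at 1 in both shPCBP2 libraries, against 0.51 and 0.65 in shU2AF2. ADARB1, an enzyme that edits adenosine to inosine in RNA, had 0.73 and 0.83 in shPCBP2, against 0.48 and 0.46 in shU2AF2. In each of these 3 genes both shPCBP2 libraries lay above both shU2AF2 libraries, by the rule that chose them.

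The remaining rises were CASTOR3, AC026471.1, AL133215.2, CXADR, CNOT6L, HES5 and RABL3, with differences of 0.515 to 0.33. The last exon of CASTOR3 overlaps STAG3 and that of AC026471.1 overlaps ARMC5. HES5, a transcriptional repressor downstream of Notch, had 0.70 and 0.78 in shPCBP2, against 0.46 and 0.36 in shU2AF2. CXADR, the coxsackievirus and adenovirus receptor of tight junctions, had 0.62 and 0.74 in shPCBP2, against 0.38 and 0.29 in shU2AF2. The groups did not overlap in any of them, by the rule that chose them. C1GALT1, CASTOR3, AL133215.2, CXADR, CNOT6L and HES5 lost their calls whichever of the 4 libraries was left out. VGF, AC026471.1, ADARB1 and RABL3 lost theirs without shPCBP2 replicate 2 and at least 1 other library, and the adjusted p of the lost calls among the rises ranged up to 0.245 (limma). Centring ended the calls of AC026471.1, AL133215.2, CNOT6L and RABL3, at adjusted p of 0.0534 to 0.0723 (limma).

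**Figure D2:**
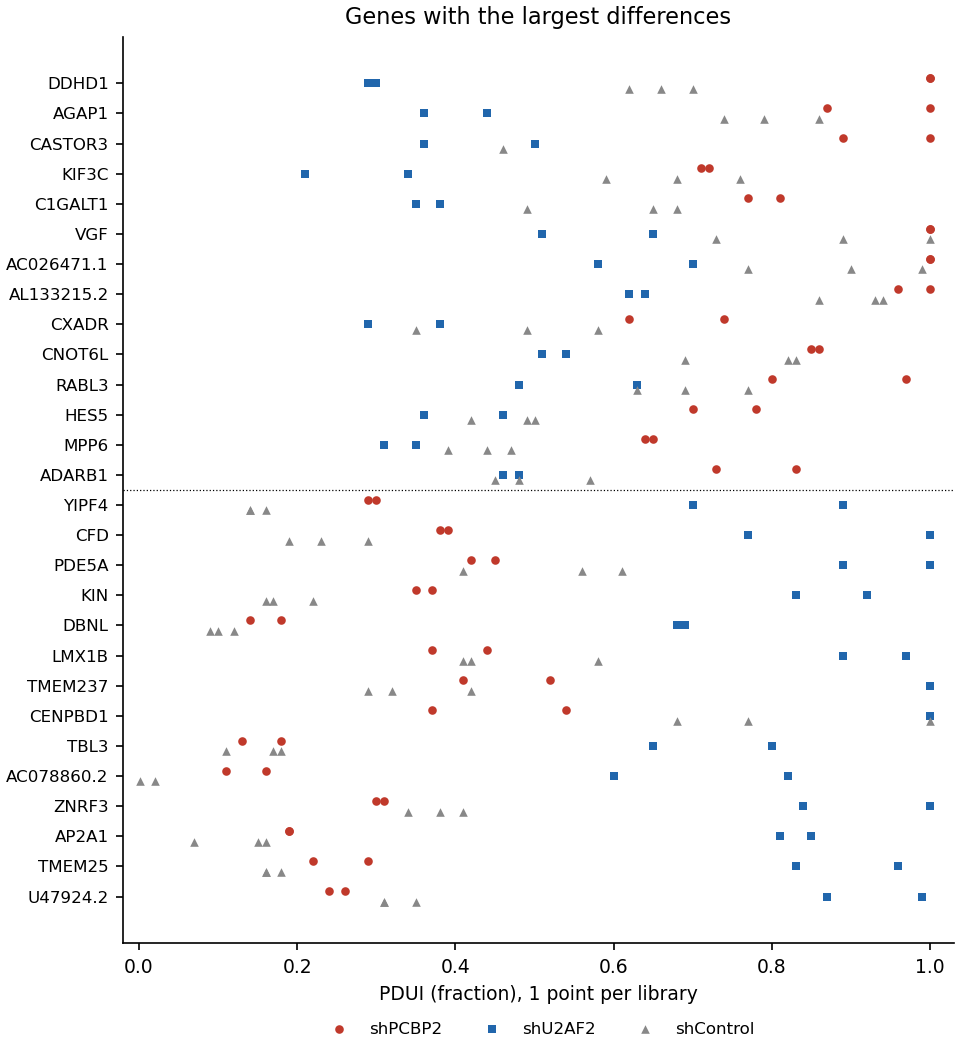
PDUI (fraction) of the 14 genes with the largest positive and the 14 with the largest negative difference, with 1 point per library of shPCBP2 (red circles), shU2AF2 (blue squares) and shControl (grey triangles). The shPCBP2 and shU2AF2 points do not overlap in any of the 28, by the rule that chose them, and shControl lies beside shPCBP2 in most of the falls.

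Among genes that themselves process RNA, SR and SR-related splicing proteins had the highest share of called members of the 16 gene lists. Of 31 tested, 5 were higher and 3 lower in shPCBP2, which is 25.8% against 4.48% of all tested genes, while the list's median difference was 0.005 against 0. BCLAF1, an SR-related factor of transcription and splicing, had 0.30 and 0.32 in shPCBP2, against 0.17 and 0.17 in shU2AF2 (0.14, adjusted p = 0.000302, limma). SREK1, a splicing regulatory protein with an SR-like domain, had 0.44 and 0.43 in shPCBP2, against 0.29 and 0.30 in shU2AF2 (0.14, adjusted p = 0.000369, limma). Both genes differed by the same amount, with close replicates. SRSF1, the founding SR protein, moved the other way, with 0.17 and 0.17 in shPCBP2, against 0.33 and 0.34 in shU2AF2 (-0.165, adjusted p = 0.00075, limma), and its last exon overlaps AC015813.2. LUC7L3, a partner of the U1 particle, was also lower, at 0.05 and 0.05 in shPCBP2, against 0.13 and 0.11 in shU2AF2. These 4 genes stayed called without any single library, and the list's count was 4 without shPCBP2 replicate 2 and 6 in each other leave-out. Centring left 4, 3 higher and 1 lower, without LUC7L3 (adjusted p = 0.119, limma).

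Of the other spliceosome subunits, 1 of 52 was higher and 4 lower in shPCBP2, 9.62% against 4.48% of all tested genes, with a median difference of -0.01. SART1, which brings the tri-particle of U4, U5 and U6 into the spliceosome, had 0.15 and 0.13 in shPCBP2, against 0.50 and 0.49 in shU2AF2 (-0.355, adjusted p = 0.000163, limma). PLRG1, a core member of the Prp19-associated complex, had 0.41 and 0.39 in shPCBP2, against 0.84 and 0.83 in shU2AF2 (-0.435, adjusted p = 0.00106, limma). For both, shControl lay near shPCBP2, at 0.127 for SART1 and 0.313 for PLRG1. PRPF40B was lower, by -0.28, and PRPF4B higher, by 0.175. The list's count was 2 in each leave-out, and PRPF40B and PRPF4B lost their calls in all of them, at adjusted p up to 0.227 (limma). Centring each library on its median left 3 members, all lower, without PRPF4B (adjusted p = 0.0815). U2 particle and 3' splice site factors, the closest partners of U2AF2, had 2 of 29 members lower (6.90% called, against 4.48% of all tested genes) and none higher. SF3B1, the branch-site protein of the U2 particle, had 0.05 and 0.06 in shPCBP2, against 0.10 and 0.09 in shU2AF2. SUGP1, a partner of SF3B1, had 0.03 and 0.08 in shPCBP2, against 0.17 and 0.13 in shU2AF2, and was not called without replicate 1 of either knockdown (adjusted p = 0.14 and 0.143, limma). Neither was called after centring, at an adjusted p of 0.554 for SF3B1 and 0.0915 for SUGP1 (limma).

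PCBP, hnRNP and other KH-domain proteins had 3 of 48 members lower in shPCBP2 and none higher, 6.25% called against 4.48% of all tested genes, with a median difference of 0.01. HNRNPDL, an hnRNP D-like RNA-binding protein, had 0.25 and 0.23 in shPCBP2, against 0.43 and 0.40 in shU2AF2. HNRNPD, also known as AUF1, a binder of AU-rich elements, differed by -0.025, and HNRNPA3 by -0.065. All 3 lost their calls without shPCBP2 replicate 2. HNRNPD and HNRNPA3 also lost theirs without shPCBP2 replicate 1, HNRNPDL and HNRNPA3 without shU2AF2 replicate 1, and HNRNPD without shU2AF2 replicate 2. After centring none was called, at an adjusted p of 0.0952 for HNRNPDL, 0.828 for HNRNPD and 0.366 for HNRNPA3 (limma). The cleavage and polyadenylation factors, the machinery that reads the hexamers shown above, had 2 called members of 28 (7.14%, against 4.48%). CSTF2T, a paralogue of the CstF subunit that binds downstream of the cleavage site, had 0.27 and 0.26 in shPCBP2, against 0.15 and 0.20 in shU2AF2. WDR33, the CPSF subunit that contacts the hexamer, had 0.11 and 0.13 in shPCBP2, against 0.21 and 0.20 in shU2AF2, and its last exon overlaps SFT2D3. WDR33 lost its call whichever compared library was left out, and CSTF2T in each leave-out but that of shU2AF2 replicate 2. Neither was called after centring, at an adjusted p of 0.198 for CSTF2T and 0.245 for WDR33 (limma).

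Among nuclear RNA decay and export factors, 2 of 38 were higher and 3 lower, 13.2% against 4.48% of all tested genes. EXOSC6, a subunit of the RNA exosome, had 0.31 and 0.30 in shPCBP2, against 0.15 and 0.14 in shU2AF2 (0.16, adjusted p = 4.66e-05, limma), and shControl lay between them at 0.257. The export factors went both ways: CHTOP differed by -0.155 and THOC5 by -0.035, and ALYREF by 0.09. CHTOP lost its call without shPCBP2 replicate 2 or shU2AF2 replicate 1, and ALYREF lost its call whichever compared library was left out. After centring, EXOSC6 was the 1 member still called. In the microRNA pathway and deadenylation list, 2 of 39 were called, both higher, a share of 5.13% near the 4.48% of all tested genes. CNOT6 and CNOT6L are alternative deadenylase subunits of the CCR4-NOT complex. CNOT6 had 0.74 and 0.72 in shPCBP2, against 0.52 and 0.54 in shU2AF2, and CNOT6L had 0.85 and 0.86 in shPCBP2, against 0.51 and 0.54 in shU2AF2. Neither was called with any 1 of the 4 compared libraries left out, and CNOT6L was not called after centring (adjusted p = 0.0613, limma). Without shPCBP2 replicate 2 the decay and export count was 2, and it was 2 without shU2AF2 replicate 1 and 3 without shU2AF2 replicate 2.

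Histone-modifying enzymes had 1 of 77 members higher and 7 lower in shPCBP2, 10.4% of those tested against 4.48% of all tested genes (1.47% higher and 3.01% lower), with a median difference of 0.015. NSD1, a methyltransferase of histone H3, had 0.51 and 0.50 in shPCBP2, against 0.80 and 0.83 in shU2AF2 (-0.31, adjusted p = 0.000859, limma). HDAC2, a deacetylase, used its distal site in few transcripts of either knockdown, at 0.01 and 0.01 in shPCBP2, against 0.05 and 0.05 in shU2AF2 (-0.04, adjusted p = 2.31e-05, limma). Within every group its libraries had the same value to 2 decimals, so this p rests on the spread of other genes. Leaving out 1 library could not change that. KDM5A, a histone demethylase, was the member that was higher, with 0.34 and 0.33 in shPCBP2, against 0.22 and 0.22 in shU2AF2. PRMT2, an arginine methyltransferase, differed by -0.095 and was not called without shPCBP2 replicate 2 (adjusted p = 0.105) or shU2AF2 replicate 2 (0.103, limma). NSD1, HDAC2 and KDM5A stayed called without any single library, and the list's count was 3 to 5 in the leave-outs, lowest without shPCBP2 replicate 2. After centring, 3 members were called, all lower, and the calls of HDAC2 (adjusted p = 0.52), KDM5A (0.123) and PRMT2 (0.179, limma) were lost.

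PCBP2 is also known as an iron chaperone that hands iron to ferritin, and as a brake on the antiviral adaptor MAVS. Iron-handling genes had 2 of 32 members lower and none higher, 6.25% called against 4.48% of all tested genes. CIAO1, part of the targeting complex for iron-sulfur clusters, had 0.30 and 0.29 in shPCBP2, against 0.45 and 0.46 in shU2AF2 (-0.16, adjusted p = 0.000208, limma). FECH, the ferrochelatase that inserts iron into haem, differed by -0.055 and was not called without shPCBP2 replicate 1 (adjusted p = 0.122), shPCBP2 replicate 2 (0.133) or shU2AF2 replicate 1 (0.146), or after centring (0.34, limma). The MAVS signalling list had 2 of 46 lower, a share of 4.35% beside the background of 4.48%. These were IFNAR2, an interferon receptor subunit, with 0.79 and 0.64 in shPCBP2 against 1 in both shU2AF2 libraries, and ZCCHC3, a cofactor of RNA and DNA sensing, with 0.77 and 0.73 in shPCBP2 against 0.88 and 0.90 in shU2AF2. ZCCHC3 lost its call whichever compared library was left out, and IFNAR2 in each leave-out but that of shPCBP2 replicate 1. ZCCHC3 was also not called after centring, at an adjusted p of 0.275 (limma). The last exon of IFNAR2 overlaps AP000295.1 and IL10RB-DT.

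In the cell cycle list, 4 of 65 were lower and none higher, 6.15% called against 4.48% of all tested genes. CDT1, which licenses replication origins, had 0.25 and 0.25 in shPCBP2, against 0.56 and 0.50 in shU2AF2 (-0.28, adjusted p = 6.24e-05, limma), with shControl at 0.24. CCNB2, ORC4 and SKP1 were called by smaller differences, -0.085, -0.07 and -0.01, of which the last equals 1 step of the 2-decimal table. These 3 were lost without either shPCBP2 library and without at least 1 of the shU2AF2 libraries. After centring none of them was called, at adjusted p of 0.275 to 0.996 (limma). The last exons of ORC4 and SKP1 overlap ACVR2A and TCF7, in that order. DNA repair genes had 1 of 85 higher, MSH6, a mismatch recognition protein, and 1 lower, LIG3, a DNA ligase whose last exon overlaps RFFL. Their share of 2.35% lay under the background, and MSH6 was lost in every leave-out, at adjusted p of 0.1 to 0.166. After centring neither was called (adjusted p = 0.228 for MSH6 and 0.056 for LIG3, limma).

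Traffic genes, the Rab GTPases, SNAREs and vesicle coats, had 1 of 89 higher and 4 lower, a share of 5.62% near the 4.48% of all tested genes. Apart from AP2A1, SEC22B, a SNARE between the endoplasmic reticulum and the Golgi, had 0.42 and 0.42 in shPCBP2, against 0.59 and 0.53 in shU2AF2. RAB21, an endosomal Rab, had 0.33 and 0.35 in shPCBP2, against 0.22 and 0.21 in shU2AF2, and its last exon overlaps AC089984.1. COPA, a coatomer subunit, differed by -0.035. AP2A1 stayed called in every leave-out, and RAB21 lost its call without shPCBP2 replicate 2. SEC22B lost its call in each leave-out but that of shU2AF2 replicate 2, and COPA whichever compared library was left out. Centring left AP2A1 and RAB21 called, and SEC22B was at an adjusted p of 0.0534 and COPA at 0.607 (limma).

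Numbered ZNF genes, mostly zinc finger transcription factors, had 8 of 299 higher and 2 lower, and their share of 3.34% was under the background. ZNF207, a zinc finger protein of mitotic spindle assembly, had 0.16 and 0.16 in shPCBP2, against 0.07 and 0.07 in shU2AF2, while ZNF431 had 0.41 and 0.45 in shPCBP2, against 0.81 and 0.70 in shU2AF2. ZNF511 and ZNF445 were higher by 0.245 each, and the last exons of ZNF431, ZNF511 and ZNF445 overlap other genes. Mitochondrial ribosomal proteins had 1 of 66 higher, MRPL46, and 4 lower, 7.58% called against 4.48% of all tested genes, with differences of -0.04 to -0.05 for MRPS21, MRPS33 and MRPL28. None was called after centring, at an adjusted p of 0.497 for MRPS21, 0.511 for MRPS33, 0.403 for MRPL28 and 0.0907 for MRPL46 (limma). The last exon of MRPL46 overlaps AC013489.1. Antisense RNA genes had 3 of 202 higher and 7 lower, 4.95% called and so close to the background. ZRANB2-AS1 had 0.34 and 0.37 in shPCBP2, against 0.15 and 0.15 in shU2AF2, HMGN3-AS1 differed by -0.1, ZBTB11-AS1 by -0.25 and GNAS-AS1 by -0.205. The last exons of ZRANB2-AS1, HMGN3-AS1 and ZBTB11-AS1 overlap the sense gene of that name, so their reads cannot be told from it. The counts were 5 for the ZNF genes and 4 for the antisense genes without shPCBP2 replicate 2, the antisense count was 5 without shU2AF2 replicate 1, and the mitochondrial ribosomal count was 3 without either shU2AF2 library. MRPL46 was lost without shPCBP2 replicate 2 (adjusted p = 0.133), shU2AF2 replicate 1 (0.101) or shU2AF2 replicate 2 (0.0751, limma). Centring left 8 ZNF genes and 5 antisense genes called, without ZNF207 (adjusted p = 0.0606) and HMGN3-AS1 (0.056, limma).

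**Figure D3:**
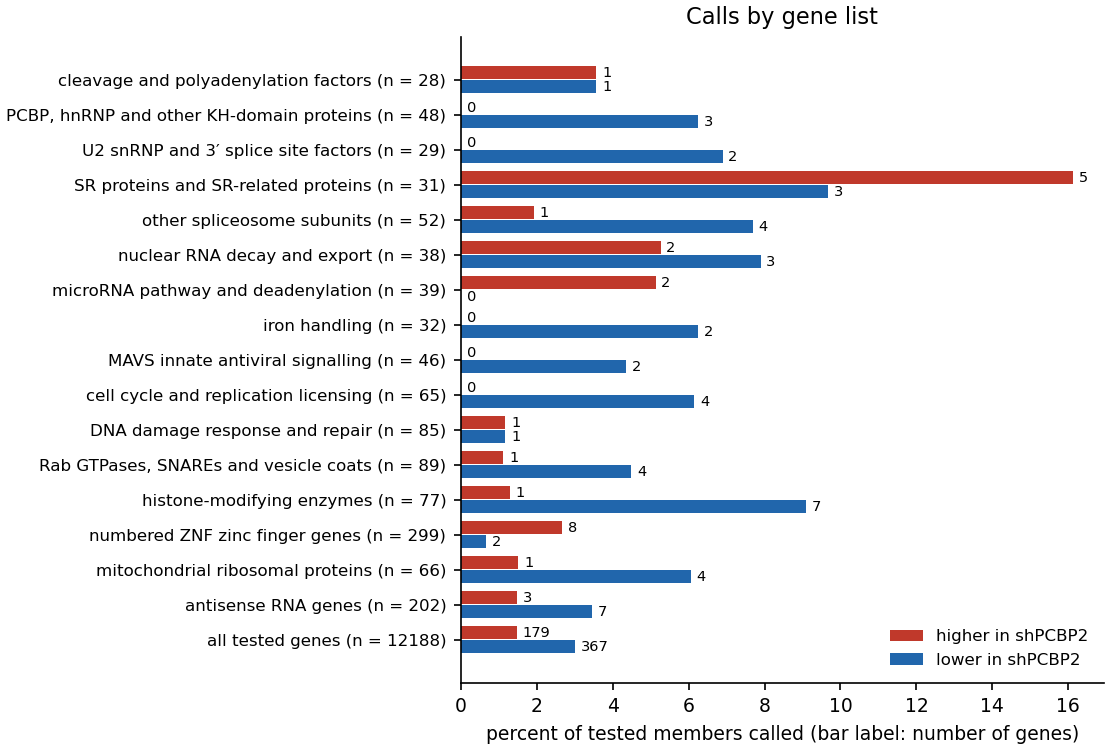
Share of tested members (percent) called higher in shPCBP2 (red) and called lower (blue) in each of the 16 gene lists and over all tested genes, with the number of genes at each bar. SR and SR-related proteins have the longest bar, 5 higher of 31 tested, and 7 of 77 histone-modifying enzymes were lower.

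At the genes of the knocked-down proteins themselves, no difference in site use was called. The last exon of PCBP2 overlaps MAP3K12 and that of U2AF2 overlaps AC008735.2, both on the opposite strand. PCBP2 had 0.60 and 0.58 in shPCBP2, against 0.54 and 0.58 in shU2AF2 and 0.57 ± 0.01 in shControl (SD, n = 3). The shPCBP2 minus shU2AF2 difference was 0.03 with a 95% interval of -0.0324 to 0.0924 (adjusted p = 0.752, limma). U2AF2 had 0.45 and 0.48 in shPCBP2, against 0.42 and 0.49 in shU2AF2 and 0.413 ± 0.047 in shControl, with a difference of 0.01 and an interval of -0.0633 to 0.0833 (adjusted p = 1, limma). For U2AF2 the groups overlapped, and the sign of its difference turned without shPCBP2 replicate 2 or without shU2AF2 replicate 1. PDUI does not show how far either RNA was reduced, so the hairpins could not be checked in these data.

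Most genes lower in shPCBP2 than in shU2AF2 had a shControl value close to that of shPCBP2. In the 367 lower genes, 366 of which had a shControl value, the shControl mean was nearer to shPCBP2 in 354 (96.7%) and nearer to shU2AF2 in 12. The median PDUI of these genes was 0.165 in shPCBP2, 0.325 in shU2AF2 and 0.153 in shControl. In the higher genes, 178 with a shControl value, the control was nearer to shPCBP2 in 91 and to shU2AF2 in 86, and it lay between both in 147. Their medians were 0.425 in shPCBP2, 0.268 in shU2AF2 and 0.347 in shControl. Over all tested genes the control was nearer to shPCBP2 in 49.5% and to shU2AF2 in 39.5%. These genes include both directions and more ties, so they are not a like baseline for either set. After each library was centred on its median, the control was nearer to shPCBP2 in 82.2% of the lower genes and 69.7% of the higher genes. Without shControl replicate 1, which had the lowest mean PDUI of the 15 libraries, the shares were 96.4% and 50.8%.

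Each knockdown was also tested against shControl in the same fit. The call count was 145 of 12434 for shPCBP2 (1.17%), 130 higher (1.05%) and 15 lower (0.121%), and 899 of 12362 for shU2AF2 (7.27%), 727 higher (5.88%) and 172 lower (1.39%). The 2 comparisons share the control libraries, so they are given side by side and nothing is read from their overlap. Centring left 9 calls for shPCBP2, 8 higher and 1 lower, and 434 for shU2AF2, 268 higher and 166 lower. The shPCBP2 count was 46 without its replicate 1, 44 without its replicate 2, 59 without shControl replicate 1 and 64 without shControl replicate 3, and the shU2AF2 count was 578 without its replicate 2. At AP2A1 the difference from shControl was 0.0633 in shPCBP2 (adjusted p = 0.473) and 0.703 in shU2AF2 (adjusted p = 7.57e-06, limma). At MPP6 it was 0.212 in shPCBP2 (adjusted p = 0.029) and -0.103 in shU2AF2 (adjusted p = 0.137, limma).

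The other knockdowns give values that the contrast of shPCBP2 with shU2AF2 did not use, other than for the estimate of spread. In the genes higher in shPCBP2, the shSF3B4 mean was nearer to shU2AF2 in 141 of 177 (79.7%, against 46.0% of all tested genes) and nearer to shPCBP2 in 34. The share over all tested genes mixes both directions and holds 1434 ties among 11851 genes, against 2 among the 177. It is therefore not a like baseline for genes of a single direction, and no such baseline was computed. SF3B4 is a subunit of the U2 particle, which U2AF2 helps to recruit. In the lower genes, shSF3B4 was nearer to shU2AF2 in 197 of 366 (53.8%) and to shPCBP2 in 161. AP2A1, at 0.805 in shSF3B4, TBL3, at 0.605, and DDHD1, at 0.20, lay near or beyond shU2AF2, whereas KIN, at 0.21, and YIPF4, at 0.235, lay on the side of shPCBP2. These shares moved little after centring, to 18.1% of the higher and 47.5% of the lower genes nearer to shPCBP2.

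PABPN1 is the nuclear poly(A)-binding protein, whose loss is known to favour proximal sites, and HDAC1 and ZNF384 are a deacetylase and a zinc finger factor. In the genes higher in shPCBP2, shPABPN1 was nearer to shPCBP2 in 145 of 179 (81.0%) and shZNF384 in 149 of 178 (83.7%), against 46.5% of all tested genes for shPABPN1 and 52.5% for shZNF384. DDHD1 was at 1 in both shPCBP2 and shPABPN1. shHDAC1 lay nearer to shPCBP2 in 82 of 179 higher genes and in 351 of 365 lower genes (96.2%), against 50.9% of all tested genes. In the lower genes shZNF384 was nearer to shPCBP2 in 321 of 367 (87.5%) and shPABPN1 in 282 of 366 (77.0%). Centring turned shHDAC1 in the higher genes, to 99 of 179 nearer to shPCBP2, and shPABPN1 in the lower genes, to 39.9% nearer to shPCBP2, and put shPABPN1 nearer to shPCBP2 in 170 of the 179 higher genes and shZNF384 in 62.4%. These are shares of genes whose values come from the same few libraries, with no test. As for shSF3B4, the shares over all tested genes mix both directions and hold more ties.

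**Figure D4:**
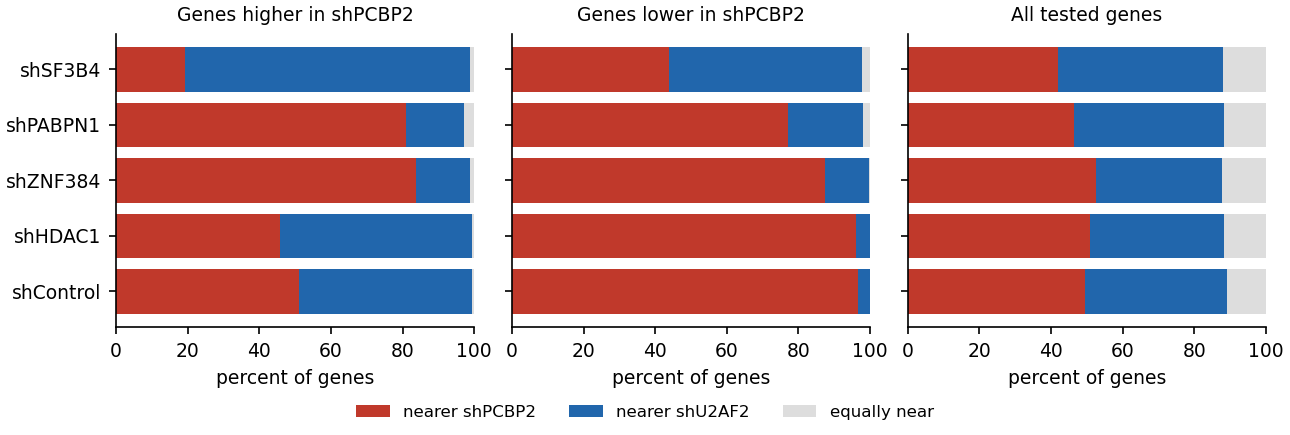
Share of genes (percent) in which the mean of another group lay nearer to shPCBP2 or to shU2AF2, for the genes called higher in shPCBP2, called lower, and all tested. shSF3B4 is nearer to shU2AF2 in 79.7% of the higher genes, and shControl is nearer to shPCBP2 in 96.7% of the lower genes.

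The last exons of the called genes were described from GENCODE release 29, with no test. The median last exon was 3740.5 bases in the 176 annotated genes higher in shPCBP2 and 2582 bases in the 361 lower ones, against 1333 bases in the genes not called. By base composition of the last exon the 2 directions fell on opposite sides of the genes not called. Cytosine made up a median of 19.7% in the higher genes, 24.6% in the lower genes and 22.6% in those not called, and thymine made up 31.3% in the higher genes, 25.8% in the lower genes and 27.6% in those not called. Runs of CCC, counted on the transcript strand with overlaps allowed, had a median of 11.4 per kb in the higher genes, 20.1 in the lower genes and 16.2 in those not called. For TTT the median was 47.0 per kb in the higher genes, 27.4 in the lower genes and 32.0 in those not called. The quartiles of the 3 sets overlap for each measure. AATAAA lay in the last 50 bases of 73.9% of the higher genes, 54.0% of the lower genes and 60.9% of those not called. Composition, exon length and the level of PDUI may go together among genes, and their part in which genes were called was not tested.

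**Figure D5:**
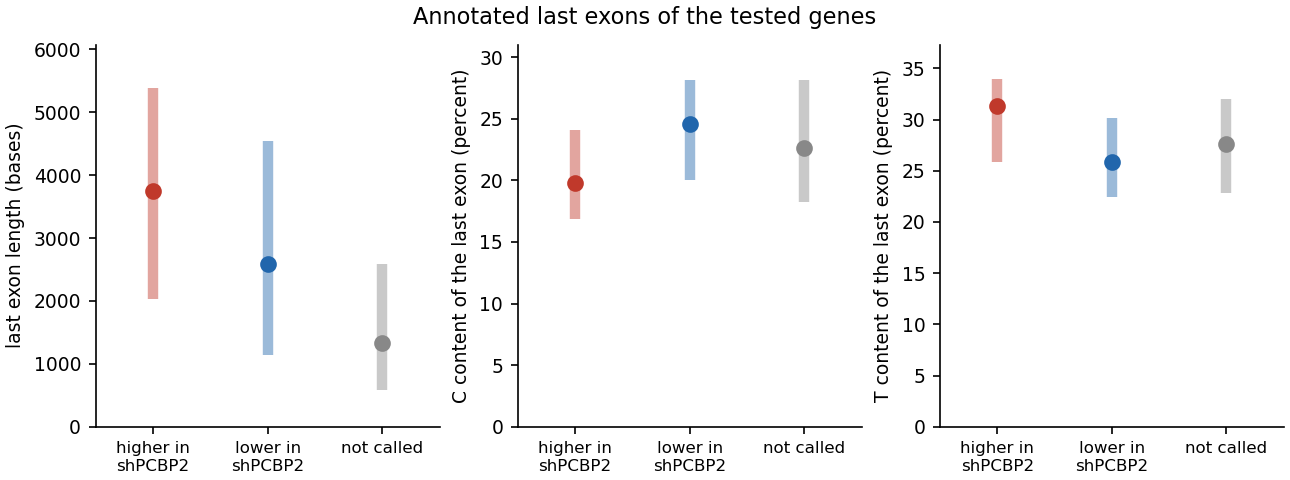
Median (point) and quartiles (bar) of last exon length (bases) and of its C and T content (percent) in genes called higher in shPCBP2, called lower and not called. The higher genes have the longest and most T-rich last exons, and the lower genes the most C-rich, with overlapping quartiles.

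An exon of another gene overlapped the last exon in 25.6% of the higher genes, 34.1% of the lower genes and 25.6% of those not called. Counting exons on the opposite strand alone, the share was 16.5% of the higher genes, 26.3% of the lower genes and 17.8% of those not called. A repeat of the fit without the 3067 genes known to overlap, chosen after seeing the data, gave 365 calls among 9121 genes (4.0%), which still include those with no annotated last exon. By annotated type, 165 protein-coding genes were higher and 324 lower of 10495 tested (4.66%), 7 antisense genes were higher and 27 lower of 636 (5.35%), and 2 long intergenic RNA genes were higher and 3 lower of 366 (1.37%).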

How the data were processed

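The authors deposited PDUI as a fraction for 13056 genes (1 transcript each) in 15 libraries, on hg38 per the submitters' processing notes. No aligner, site caller or annotation is named in the sources used here. Without read counts, depth and counting error are unknown.

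Deposited values entered limma 3.58.1 (R 4.3.3) unscaled. All 15 libraries were fitted with 1 mean per group, with lmFit and eBayes with a variance trend (8 residual degrees of freedom, prior 1.06), because 2 libraries a group carry little information on the spread. Two-sided p-values were Benjamini-Hochberg adjusted over all tested genes, with 0.05 as the threshold for a call. The fit was also run on simulated data with independent noise, no library offsets, and differences planted only in genes of middle PDUI. That run does not cover offsets between libraries or genes near 0 or 1, and its outcome is not given here. Named genes are the 14 largest called differences in each direction among genes whose 4 libraries did not overlap, up to 4 called members per list with the smallest p, and PCBP2 and U2AF2. The comparison, members and 16 gene lists were chosen with earlier results of these data known. Transcripts were matched by identifier to GENCODE release 29 (97.3% found, 54.9% with the same version). The shSF3B4 columns were assigned to the group only. The alternatives changed the libraries fitted, scaling, filters and replicate blocking. Those chosen after seeing the data left out shControl replicate 1, crossed the replicate numbers, removed overlapping last exons, or recomputed the nearness of other groups. Replicates are not stated to be separate cultures, so p-values measure the spread between these libraries, which may be technical.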

Additional observations from a re-analysis of the deposited data

How the results depend on the processing

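The number of genes called between shPCBP2 and shU2AF2 was 546. It was 0 with only the 4 compared libraries (1706 at an unadjusted p under 0.05), 214 with libraries centred on their medians (67 higher, 147 lower), and 288 to 577 with 1 library left out (577 without shControl replicate 1, chosen after seeing the data, and at most 378 without 1 of the 4 compared). With the replicate number as a block it was 346 in 13 libraries and 0 in 4 libraries (1534 unadjusted), and 0 with the numbers crossed, an alternative chosen after seeing the data (1488 unadjusted). Across genes, replicate 1 minus replicate 2 in shPCBP2 correlated at 0.0175 with the same difference in shU2AF2. That value covers only these 2 groups and does not show whether same-numbered libraries share a batch. The shSF3B4 libraries, with no agreed number, were left out of the block. For shPCBP2 against shControl, 145 calls became 2 with only those groups, 7 with the block, 9 when centred and 44 to 122 in the leave-outs. For shU2AF2 against shControl, 899 became 327, 531, 434 and 578 to 785 in the same order. The difference in library means ranged from -0.00185 to 0.00759 in the leave-outs, turning negative without replicate 2 of either knockdown (-0.00162 and -0.00185). The U2AF2 gene's difference ranged from -0.025 (without shU2AF2 replicate 1) to 0.045 and was -0.005 without shPCBP2 replicate 2. The cause of these changes was not tested. Other filters and scales, among them a logit scale (518 calls), stayed within 1.5 times the count. Depth is unknown, so its limits could not be set.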
